A study of Mus musculus with 15 samples.

Results

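The genes described are 9 members of the WNT pathway that act at the cell membrane or in the cytoplasm and that are known to be switched on by WNT signalling itself or to tune how strongly a cell responds to it: Axin2, Nkd1, Nkd2, Znrf3, Rnf43, Lgr4, Lgr5, Lgr6 and Tnfrsf19. They were chosen by name and are 9 of the 22180 genes with a row of their own on the array. They lie on 11 rows, and for Axin2 and Lgr5, which have a further row each, the row with the highest mean stands for the gene. RNA came from the cerebella of C57BL/6 mouse pups, which the labels place at day 1 after birth in one field and day 2 in another, and the design text adds an enrichment of granule neuron progenitors by density. There are 3 labelled groups of 5 libraries, 1 array each. In the double knockout (DKO), the labels give a deletion of both Gsk-3 kinases, alpha and beta, in granule neuron progenitors and spell out no alleles. Gsk-3 is short for glycogen synthase kinase 3. The Math1-Cre control is labelled as lacking Gsk-3 beta only: its description gives M1Cre, Gska+- and GskBff. The no-Cre control is labelled as Gsk-3 intact, with Gska+- and GskBff but no Cre, and for replicate 5 the description leaves out GskBff. Both controls thus carry the same altered Gsk3a allele. Math1 is another name for Atoh1, a gene of granule neuron progenitors, so a deletion made by this Cre would spare other cells of the cerebellum. The Gska+- allele is also given without Cre, so the labels do not tie it to the Cre or to these cells. The labels give 1 replicate per library and no litter, so a p-value here measures only how far these samples spread, which may be technical. Precision is limited by having 5 arrays per group.

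In the WNT pathway, Gsk-3 works with Axin and Apc proteins in a destruction complex that marks beta-catenin for breakdown. When the kinase is blocked, beta-catenin persists and, with TCF and LEF factors, turns on target genes. Several targets act back on the pathway: Axin2 rebuilds the destruction complex, Nkd1 and Nkd2 bind Dishevelled in the cytoplasm, and Znrf3 and Rnf43 are ubiquitin ligases that remove Frizzled receptors from the membrane. Lgr4, Lgr5 and Lgr6 are receptors for R-spondins, which hold Znrf3 and Rnf43 in check, and Tnfrsf19 is a membrane receptor of the tumour necrosis factor receptor family. In the early postnatal cerebellum, granule neuron progenitors divide in the external layer before they become neurons.

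The stretches of 250 bases before the annotated start were taken from RefSeq (assembly GRCm38.p6), which is not the mm9 build named in the submitters' processing notes. They are shown for 3 members with high levels in the same libraries and for the only window with a match to a TCF/LEF motif. The letters CTTTGAA and CTTTGAT were searched on both strands, and at least 1 of them lay in 7.48% of 32851 windows of this length. Windows were found for 7 of the 9 members, 9 windows in all, because Rnf43 and Tnfrsf19 have more than 1 annotated start. Axin2 (chr11:108920099-108920348, plus strand), Nkd1 (chr8:88527383-88527632, plus strand), Lgr6 (chr1:135105277-135105526, minus strand) and Tnfrsf19 (chr14:61037988-61038237, minus strand) read, 5′ to 3′, with the match in capitals:
Axin2: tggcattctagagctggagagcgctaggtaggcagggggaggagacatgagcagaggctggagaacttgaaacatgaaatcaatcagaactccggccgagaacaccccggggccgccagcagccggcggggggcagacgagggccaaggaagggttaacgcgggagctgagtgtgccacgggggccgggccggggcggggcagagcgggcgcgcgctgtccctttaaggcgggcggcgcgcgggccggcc
Nkd1: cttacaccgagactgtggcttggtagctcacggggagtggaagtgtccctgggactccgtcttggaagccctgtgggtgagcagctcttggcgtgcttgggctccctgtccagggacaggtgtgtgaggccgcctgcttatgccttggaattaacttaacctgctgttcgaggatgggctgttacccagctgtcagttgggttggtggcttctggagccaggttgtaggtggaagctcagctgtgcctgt
Lgr6: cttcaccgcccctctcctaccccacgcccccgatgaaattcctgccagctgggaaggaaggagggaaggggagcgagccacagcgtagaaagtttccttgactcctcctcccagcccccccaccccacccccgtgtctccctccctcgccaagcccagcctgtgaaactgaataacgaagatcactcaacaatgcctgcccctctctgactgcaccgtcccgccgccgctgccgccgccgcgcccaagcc
Tnfrsf19: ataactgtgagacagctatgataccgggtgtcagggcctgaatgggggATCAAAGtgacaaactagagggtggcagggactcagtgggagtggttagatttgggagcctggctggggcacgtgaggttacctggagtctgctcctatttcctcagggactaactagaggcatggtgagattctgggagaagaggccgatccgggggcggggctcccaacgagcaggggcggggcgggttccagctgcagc
The match in Tnfrsf19, ATCAAAG, is CTTTGAT on the opposite strand and begins 202 bases before the start. The other 8 windows hold neither set of letters. The Axin2 window has 69.2% G and C bases and 24 CG pairs, and the Nkd1 window has 58.4% and 6. A match or its absence describes these letters in this window only.

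The targeted genes were read first, because they check the labels. The row annotated to Gsk3a, shared on the array with the transcript 9130221H12Rik, read 9.47, 8.22, 9.37, 7.89 and 8.27 in DKO 1 to 5 on the log2 scale of the deposited values. In Math1-Cre 1 to 5 it read 8.25, 8.03, 9.48, 9.50 and 9.51, and in the no-Cre libraries 9.42 to 9.59. The row therefore goes against the label in 4 libraries, those labelled DKO 1 and 3 and those labelled Math1-Cre 1 and 2. Below a value of 9.0 lay 5 libraries, DKO 2, DKO 4, DKO 5, Math1-Cre 1 and Math1-Cre 2, called low on the Gsk3a row; the 10 others are called high. The nearest values on each side were 8.27 and 9.37. No library was moved to another group. Tests follow the labels over all 15 libraries and again over 11 libraries, without those 4; values by the Gsk3a row are a description with no test, because a measured value made the split. The same row set which 4 libraries were left out, and among the 11 every DKO library is low and every control high, so the 11-library p-values are open to that choice as well. The Gsk3b row differed by 0.01 between DKO and no-Cre means (two-sided exact permutation p = 0.968), and whether it covers the deleted part is not given in the sources used here.

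Markers were read beside the members. The granule neuron progenitor list, measured for all 7 markers, had a mean level of 8.64 to 8.77 in the low libraries and 8.88 to 9.24 in the high ones, with no overlap, and none of the 7 was at background. Over 11 libraries 2 of the 7, Atoh1 and the growth regulator Mycn, fell in DKO against no-Cre (limma, adjusted p = 0.0495 and 0.0296), Mycn fell against Math1-Cre too (limma, adjusted p = 0.0489), and over 15 libraries 0 passed. Of all genes over 11 libraries, 0.64% passed as lower and 0.437% as higher against no-Cre, and 0.252% and 0.289% against Math1-Cre. Of the 5 markers of differentiating granule neurons, Nhlh1 fell and Gabra6 was higher in both DKO comparisons over 11 libraries. Against no-Cre they differed by -1.20 ± 0.12 and 1.70 ± 0.21 (limma, adjusted p = 0.000571 and 0.00239). Gabra6 was at or below background in all 5 no-Cre libraries, in the 3 Math1-Cre libraries kept and in 1 of the 3 DKO libraries kept. Its difference may be compressed. Atoh1, the gene whose promoter drives the Cre, differed between DKO and no-Cre libraries over all 15 by -0.71 (two-sided exact permutation p = 0.00794, the smallest that 252 splits can give). The mean level of the lists for differentiating granule neurons, Purkinje cells, GABAergic interneurons, astrocytes, oligodendrocytes, choroid plexus, endothelium, pericytes and microglia overlapped between low and high libraries. Of 8 Hox genes of hindbrain outside the cerebellum, 7 were at background, here the 95th percentile of 1390 olfactory and vomeronasal receptor genes on each array, 4.65 to 5.58. In bulk RNA, fewer cells of a type and less RNA per cell cannot be told apart. The part of the progenitor and granule neuron markers in the results on the members was not tested.

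Axin2, Nkd1, Znrf3 and Lgr6 were higher in all 5 low libraries than in all 10 high ones. Of all genes, 0.663% were higher in the low libraries with no overlap. Against the 5 high libraries labelled with Cre alone, the same 4 members were higher with no overlap, beside 0.987% of all genes. None of the 9 members was lower in every low library, beside 0.843% of all genes. Nkd2, Rnf43, Lgr4, Lgr5 and Tnfrsf19 overlapped between low and high libraries.

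**Figure D1:**
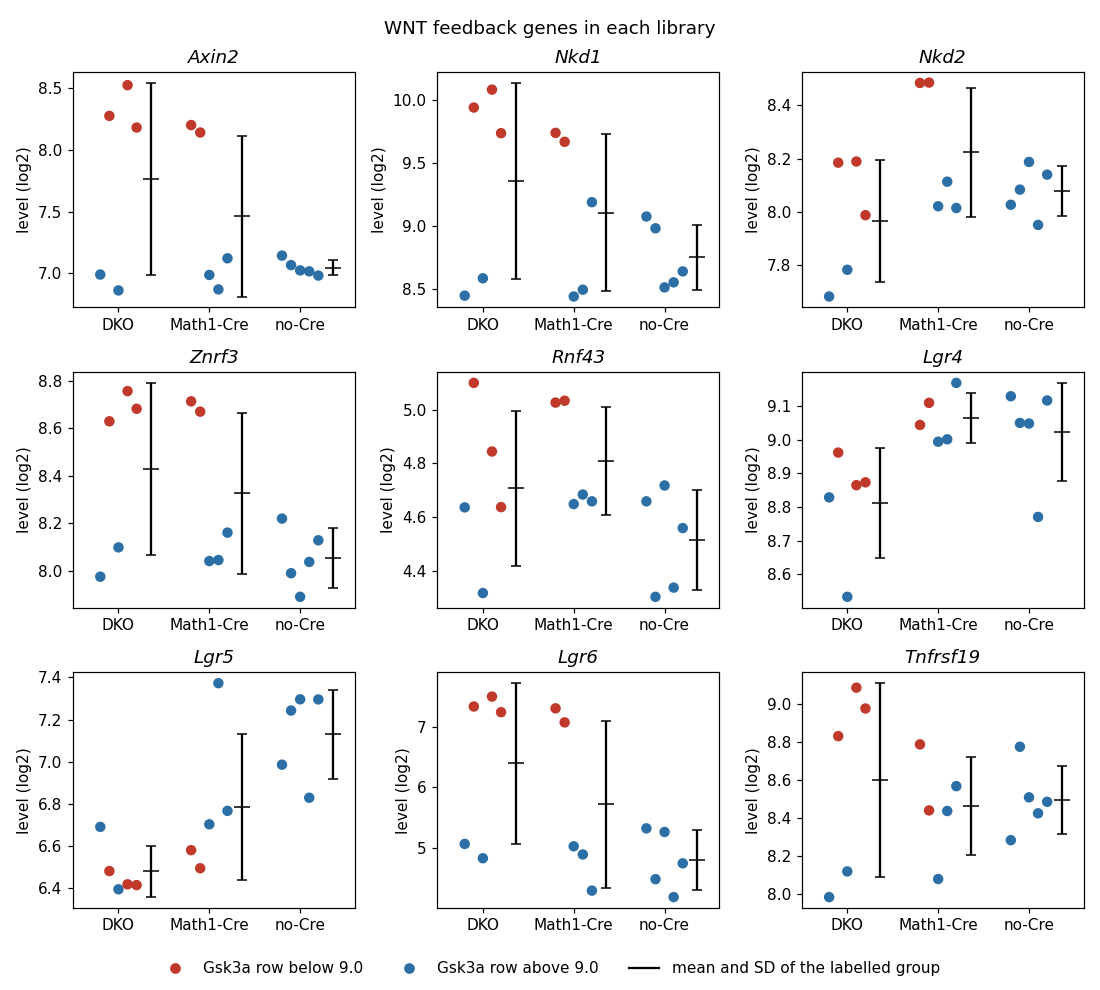
Log2 level of each member in every library (points, y axis, with a scale of its own for each gene) by labelled group (x axis); red points are the 5 libraries below 9.0 on the Gsk3a row, blue points the 10 others, and bars are the mean and SD of the labelled group (n = 5). Red points lie above every blue point for Axin2, Nkd1, Znrf3 and Lgr6 and mix with them for the other 5 genes.

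Axin2, the scaffold that is known as a readout of WNT signalling in many tissues, read 6.99, 8.28, 6.86, 8.52 and 8.18 in DKO 1 to 5. It read 8.20, 8.14, 6.99, 6.87 and 7.12 in Math1-Cre 1 to 5, and 7.14, 7.07, 7.02, 7.02 and 6.98 in no-Cre 1 to 5. The 5 low libraries stood above all others, with a gap of 1.00 log2 units to the nearest, and their median was 2.29 times that of the high libraries. The labelled DKO and Math1-Cre groups each held both levels, with an SD of 0.78 and 0.65 beside 0.06 in the no-Cre control (n = 5 each). Over 15 libraries the DKO minus no-Cre difference was 0.72 ± 0.33 (SE; limma, adjusted p = 0.273). Over 11 libraries it was 1.28 ± 0.10 (limma, adjusted p = 3.73e-05), a 2.43-fold higher level, and DKO minus Math1-Cre was 1.33 ± 0.11 (limma, adjusted p = 0.000113). Over 15 libraries DKO minus Math1-Cre was 0.30 ± 0.33 (limma, adjusted p = 0.596). The Math1-Cre minus no-Cre difference over 11 libraries was -0.054 ± 0.10, against 0.42 ± 0.33 over 15. The further row of Axin2 was at or below background in all 15 libraries and is not used.

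Nkd1, a cytoplasmic inhibitor that binds Dishevelled, read 8.45, 9.94, 8.59, 10.08 and 9.74 in DKO 1 to 5. It read 9.74, 9.67, 8.44, 8.50 and 9.19 in Math1-Cre 1 to 5, and 9.08, 8.98, 8.51, 8.55 and 8.64 in no-Cre 1 to 5. Again the low libraries were the 5 highest, and the high libraries were themselves spread over 8.44 to 9.19. The difference DKO minus no-Cre was 0.61 ± 0.33 over 15 libraries (limma, adjusted p = 0.355) and 1.17 ± 0.19 over 11 (limma, adjusted p = 0.0106). Over 11 libraries DKO minus Math1-Cre was 1.21 ± 0.21 (limma, adjusted p = 0.0268), against 0.25 ± 0.33 over 15 (limma, adjusted p = 0.668). These calls rested on few libraries: against the no-Cre control the limma adjusted p was 0.0738 without DKO 4. Against the Math1-Cre control it was 0.0568 without DKO 2, 0.119 without DKO 4, 0.109 without Math1-Cre 3 and 0.129 without Math1-Cre 4.

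Nkd2, the close relative of Nkd1, showed no such split. It read 7.68, 8.18, 7.78, 8.19 and 7.99 in DKO 1 to 5, 8.48, 8.49, 8.02, 8.11 and 8.01 in Math1-Cre 1 to 5, and 8.03, 8.08, 8.19, 7.95 and 8.14 in no-Cre 1 to 5. The libraries labelled Math1-Cre 1 and 2 were the highest of all 15, while DKO 2, 4 and 5 lay within or just above the no-Cre range. Inside each Cre-labelled group, however, the low libraries lay above the high ones. In DKO they read 7.99 to 8.19 against 7.68 and 7.78, and in Math1-Cre 8.48 and 8.49 against 8.01 to 8.11. The low DKO libraries lay below the low Math1-Cre libraries, and the high DKO libraries lay below the high Math1-Cre libraries. With this offset by label, values of the low DKO libraries overlapped with those of high control libraries. Between the labelled groups the difference DKO minus no-Cre was -0.11 ± 0.12 over 15 libraries (limma, adjusted p = 0.649) and 0.043 ± 0.08 over 11 (limma, adjusted p = 0.864), and the latter was -0.013 after centring each array on its median.

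Znrf3, a membrane ubiquitin ligase that removes Frizzled receptors, read 7.97, 8.63, 8.10, 8.76 and 8.68 in DKO 1 to 5. It read 8.71, 8.67, 8.04, 8.04 and 8.16 in Math1-Cre 1 to 5, and 8.22, 7.99, 7.89, 8.04 and 8.13 in no-Cre 1 to 5. The low libraries were tightly grouped, 0.41 log2 units above the highest of the others, and their median was 1.56 times that of the high libraries. The DKO minus no-Cre difference was 0.38 ± 0.17 over 15 libraries (limma, adjusted p = 0.272) and 0.64 ± 0.09 over 11 (limma, adjusted p = 0.00501). Over 11 libraries DKO minus Math1-Cre was 0.61 ± 0.10 (limma, adjusted p = 0.0200), against 0.10 ± 0.17 over 15 (limma, adjusted p = 0.740). That second call was lost without DKO 4 (limma, adjusted p = 0.0942), DKO 5 (0.0548), Math1-Cre 3 (0.0916) or Math1-Cre 4 (0.110); the first held without any 1 of the 11 libraries. Without the 3 libraries that carry the code cg1724 in the labels, the limma adjusted p was 0.0554 for the first and 0.174 for the second.

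Rnf43, the ligase paired with Znrf3, was near the limit of the array. It read 4.64, 5.10, 4.32, 4.84 and 4.64 in DKO 1 to 5, 5.03, 5.03, 4.65, 4.68 and 4.66 in Math1-Cre 1 to 5, and 4.66, 4.30, 4.72, 4.34 and 4.56 in no-Cre 1 to 5. In 11 of the 15 libraries it was at or below the background level, and it was above that level in DKO 2, Math1-Cre 1, Math1-Cre 2 and no-Cre 3. Over 11 libraries DKO minus no-Cre was 0.34 ± 0.12 (limma, adjusted p = 0.269), and over 15 it was 0.19 ± 0.14 (limma, adjusted p = 0.476).

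The 3 R-spondin receptors differed in pattern. Lgr4 read 8.83, 8.96, 8.53, 8.86 and 8.87 in DKO 1 to 5, 9.04, 9.11, 8.99, 9.00 and 9.17 in Math1-Cre 1 to 5, and 9.13, 9.05, 9.05, 8.77 and 9.12 in no-Cre 1 to 5. Its lowest value was 8.53 and its highest 9.17, and low and high libraries mixed. The DKO minus no-Cre difference was -0.21 ± 0.09 over 15 libraries (limma, adjusted p = 0.233) and -0.12 ± 0.10 over 11 (limma, adjusted p = 0.620). Against the Math1-Cre control the difference was -0.25 ± 0.09 over 15 libraries (limma, adjusted p = 0.125). The arrays of DKO 3, DKO 4, DKO 5 and no-Cre 4 had the narrowest spread, with interquartile ranges of 3.43 to 3.56 against 3.73 to 3.85 for the other 11. With array spread as a covariate, DKO minus no-Cre for Lgr4 was -0.12 ± 0.08 over 15 libraries and -0.025 ± 0.08 over 11, and DKO minus Math1-Cre over 15 was -0.13 ± 0.09.

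Lgr5 read 6.69, 6.48, 6.39, 6.42 and 6.41 in DKO 1 to 5, 6.58, 6.49, 6.70, 7.37 and 6.77 in Math1-Cre 1 to 5, and 6.99, 7.24, 7.30, 6.83 and 7.30 in no-Cre 1 to 5. Every library labelled DKO was below every no-Cre library, beside 1.96% of all genes, and every low library was too, beside 1.89% of all genes. DKO 3, a high library, had the lowest value of all 15, and Math1-Cre 4 the highest, so the row did not divide by the Gsk3a split. The difference DKO minus no-Cre was -0.65 ± 0.14 over 15 libraries (limma, adjusted p = 0.0767) and -0.69 ± 0.16 over 11 (limma, adjusted p = 0.0657), and neither passed the threshold of 0.05. It passed when 1 library was left out or the arrays were scaled otherwise: over 15 libraries the limma adjusted p was 0.0183 without no-Cre 4, 0.0376 without Math1-Cre 4 and 0.0315 after centring on the array median. Over 11 libraries it was 0.0212 without no-Cre 4, 0.0244 without Math1-Cre 4, 0.0469 after centring and 0.0444 with only the 2 groups compared in the fit. The fit over all 15 libraries called 16 genes, 12 of them lower. Without no-Cre 4 it called 1546 (1173 lower), without Math1-Cre 4 only 8 (6 lower) and after centring 654 (626 lower). The 4 settings over 11 libraries called 1060 (661 lower), 183 (106 lower), 297 (219 lower) and 131 (60 lower), in place of 239 (142 lower). DKO 3, 4 and 5, which are among the 4 arrays of narrowest spread, held the 3 lowest Lgr5 values. With array spread as a covariate the DKO minus no-Cre difference for Lgr5 was -0.53 ± 0.14 over 15 libraries (limma, adjusted p = 0.136) and -0.58 ± 0.16 over 11 (limma, adjusted p = 0.153). The further Lgr5 row, with a mean of 3.78, was at background.

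Lgr6 had the largest difference between DKO and no-Cre libraries of the 9 members, over 15 and over 11 libraries. It read 5.07, 7.33, 4.84, 7.49 and 7.24 in DKO 1 to 5, 7.30, 7.07, 5.03, 4.90 and 4.31 in Math1-Cre 1 to 5, and 5.33, 4.49, 5.27, 4.20 and 4.75 in no-Cre 1 to 5. Low libraries lay between 7.07 and 7.49 and high ones between 4.20 and 5.33, a gap of 1.74 log2 units, and 4 high libraries were at or below background, where a difference can be compressed. Over 15 libraries DKO minus no-Cre was 1.59 ± 0.63 (limma, adjusted p = 0.215). Over 11 libraries it was 2.54 ± 0.25 (limma, adjusted p = 0.000402), a 5.83-fold higher level, and DKO minus Math1-Cre was 2.61 ± 0.28 (limma, adjusted p = 0.00108). Over 15 libraries DKO minus Math1-Cre was 0.67 ± 0.63 (limma, adjusted p = 0.532). The Math1-Cre minus no-Cre difference was -0.062 ± 0.25 over 11 libraries and 0.91 ± 0.63 over 15.

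Whether the 3 receptors changed unequally was tested on the difference in log2 level between a pair of them in each library, with 9 two-sided exact permutation tests adjusted by Benjamini-Hochberg. Rows of different genes have different probes, so such a difference is compared between groups and has no meaning as a level. Lgr6 minus Lgr4 averaged -2.42 ± 1.20 (SD, n = 5) in DKO and -4.21 ± 0.40 (SD, n = 5) in no-Cre libraries, a shift of 1.80 (exact permutation p = 0.00794, adjusted p = 0.0357). Lgr6 minus Lgr5 shifted by 2.24 between the same groups (exact permutation p = 0.00794, adjusted p = 0.0357), and Lgr5 minus Lgr4 by -0.44 (exact permutation p = 0.0238, adjusted p = 0.0714). An exact permutation p of 0.00794 is the smallest that 252 splits can give, and here it rests on narrow gaps. For Lgr6 minus Lgr4 the lowest DKO value was -3.76 and the highest no-Cre value -3.78. For Lgr6 minus Lgr5 they were -1.62 and -1.66. Both of these DKO values came from a high library. The other 6 tests, against or within the Math1-Cre control, had adjusted p of 0.179 to 0.825 by the exact permutation test. Over 11 libraries the 3 shifts between DKO and no-Cre were 2.67, 3.24 and -0.57, each with an exact permutation p of 0.0179, the smallest that 56 splits can give, and an adjusted p of 0.0536. With no-Cre 1, 2, 3, 4 or 5 left out in turn, the first and second shift had an adjusted p of 0.0952 to 0.143 by the exact permutation test, with sizes of 1.71 to 1.90 and 2.13 to 2.40. After quantile normalization their adjusted p by the same test was 0.143 and 0.107, and with the mean of a gene's rows 0.0714 and 0.179. Lgr6 and Lgr4 have no further row, so the mean of rows left their shift as it was. Its adjusted p moved only through the tests with Lgr5, whose further row was at background. Lgr5 minus Lgr4 between the Math1-Cre and no-Cre controls passed without Math1-Cre 4, at -0.55 (exact permutation, adjusted p = 0.0476). By the Gsk3a row, Lgr6 minus Lgr4 was -2.04 to -1.37 in low and -4.86 to -3.70 in high libraries, and Lgr6 minus Lgr5 was 0.57 to 1.07 and -2.75 to -1.56. Lgr5 minus Lgr4 was -2.61 to -2.45 in low and -2.40 to -1.63 in high libraries.

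**Figure D2:**
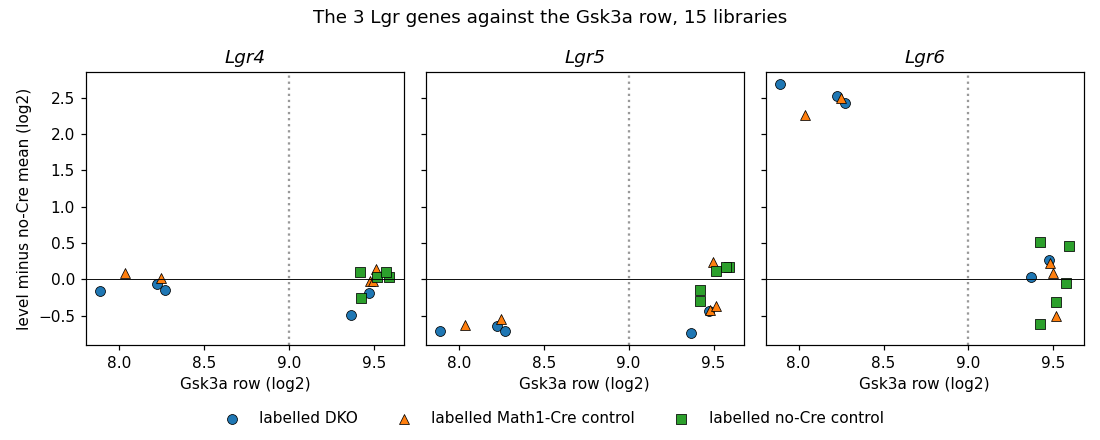
Level of Lgr4, Lgr5 and Lgr6 in each of the 15 libraries, as log2 difference from the no-Cre mean of the same gene (y axis), against the log2 value of the Gsk3a row (x axis, dotted line at 9.0); shapes and colours give the labelled group. Lgr6 stands above 2 in the 5 libraries left of the line and below 1 in the 10 others, Lgr4 has values above and below 0 on both sides, and Lgr5 is below 0 in all 5 left of the line and on both sides of 0 among the rest.

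Tnfrsf19 read 7.98, 8.83, 8.12, 9.09 and 8.98 in DKO 1 to 5, 8.79, 8.44, 8.08, 8.44 and 8.57 in Math1-Cre 1 to 5, and 8.28, 8.78, 8.51, 8.43 and 8.49 in no-Cre 1 to 5. Its highest values were in DKO 2, 4 and 5, but Math1-Cre 2 lay inside the range of the high libraries. The difference DKO minus no-Cre was 0.47 ± 0.13 over 11 libraries (limma, adjusted p = 0.140), DKO minus Math1-Cre was 0.60 ± 0.15 (limma, adjusted p = 0.112), and over 15 libraries the first was 0.10 ± 0.20 (limma, adjusted p = 0.812).

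By the labels over 15 libraries, 0 of the 9 members passed limma's adjusted threshold in any of the 3 comparisons. Of all genes, 0.0721% passed for DKO minus no-Cre, 0.55% for DKO minus Math1-Cre and 0% for Math1-Cre minus no-Cre. These shares rested heavily on no-Cre 4: without it 1546 genes passed for DKO minus no-Cre, in place of 16, and 1288 for DKO minus Math1-Cre, in place of 122, while 1 and 0 members passed. Without any other single library 0 to 191 and 0 to 402 genes passed. At an unadjusted limma p under 0.05, 5, 2 and 2 members passed, beside 17.4%, 23% and 3.23% of all genes. Over 11 libraries 4 members passed for DKO minus no-Cre, 4 higher and 0 lower, beside 1.08% of all genes, 0.437% higher and 0.64% lower. The same 4, Axin2, Nkd1, Znrf3 and Lgr6, passed as higher for DKO minus Math1-Cre, beside 0.541% of all genes, 0.289% higher and 0.252% lower. Without no-Cre 4 the 11-library counts over all genes were 1060 in place of 239 and 446 in place of 120, with 5 and 4 members called; without any other single library they were 80 to 215 and 44 to 116. None passed for Math1-Cre minus no-Cre, where 0 members had an unadjusted limma p under 0.05, beside 2.2% of all genes. The median difference of the 9 members for DKO minus no-Cre was 0.47 over 11 libraries and 0.19 over 15, beside -0.02 for all genes in both. The 0.19 is the difference of Rnf43, which was at or below background in 11 of the 15 libraries. The comparisons share control or DKO libraries, so they do not stand as separate evidence, and the set of 11 was drawn with the split of WNT genes in these data already known.

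**Figure D3:**
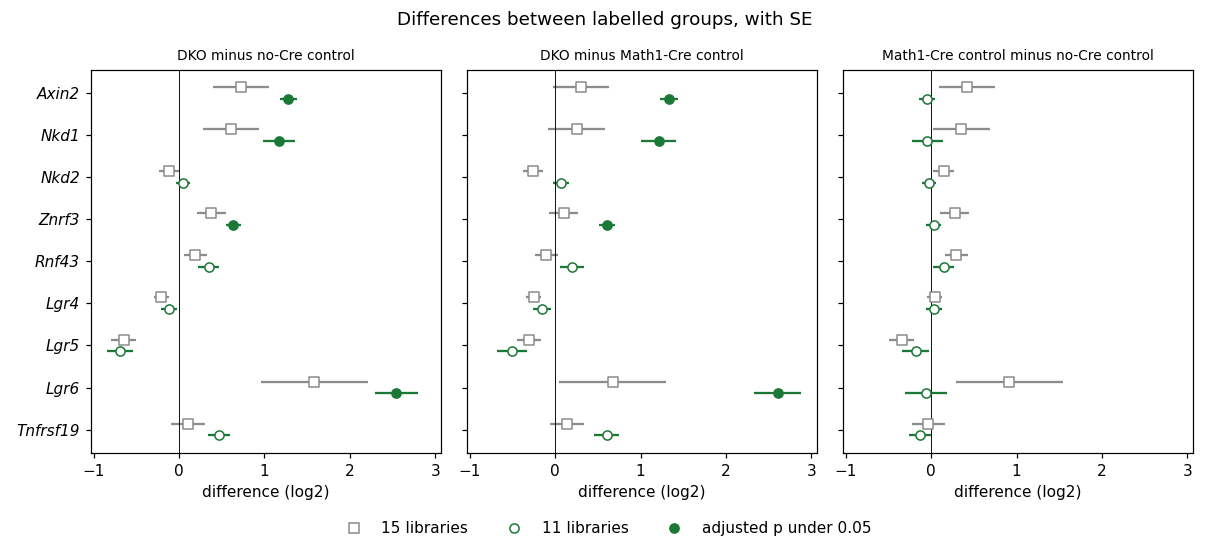
Log2 difference between labelled groups (x axis) with its limma standard error for the 9 members (y axis) in the 3 comparisons; squares are the fit over 15 libraries, circles the fit over 11, and filled circles have an adjusted p under 0.05. Filled circles stand at Axin2, Nkd1, Znrf3 and Lgr6 in both DKO comparisons and at no gene in the third.

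The other genes of the pathway were counted over 11 libraries from lists fixed with the members, with earlier results of these data known. Beside these counts, 0.437% of all genes were higher and 0.64% lower against no-Cre, and 0.289% and 0.252% against Math1-Cre. Of the 4 R-spondins, the ligands of the Lgr receptors, 0 passed in either DKO comparison, and the largest difference from the no-Cre control was Rspo3 at -0.14 ± 0.20 (limma, adjusted p = 0.805). The Rspo3 row was at or below background in all 5 low and in 9 of the 10 high libraries, so it could hardly show a change. Of 12 WNT receptors, 1 was higher, the Frizzled receptor Fzd10, by 1.26 ± 0.18 against no-Cre (limma, adjusted p = 0.00687) and 1.41 ± 0.21 against Math1-Cre (limma, adjusted p = 0.00913). Its row was at or below background in all 5 no-Cre libraries, in the 3 Math1-Cre libraries kept and in 1 of the 3 DKO libraries kept, so these sizes may be compressed. Over 15 libraries its difference from no-Cre was 0.44 ± 0.51 (limma, adjusted p = 0.676). None of the 3 Dishevelled genes and none of the 7 destruction complex genes passed in either comparison. Among them Dvl1 differed from no-Cre by 0.15 ± 0.11 and Apc, a scaffold of that complex, by -0.24 ± 0.07 (limma, adjusted p = 0.182 for Apc).

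Of 13 further WNT target genes, 11 were measured and 5 were higher in DKO than in either control over 11 libraries, with 0 lower. Of all genes, 0.437% were higher against no-Cre and 0.289% against Math1-Cre. Wif1, a secreted inhibitor of WNT ligands, was higher than in no-Cre by 3.76 ± 0.17, and Notum, an enzyme that inactivates WNT ligands, by 2.57 ± 0.12. The transcription factors Lef1 and Sp5 were higher by 1.92 ± 0.15 and 1.54 ± 0.15, with both above background in every library. Dkk1, a secreted inhibitor of the WNT coreceptors, passed as higher too, but its row was at or below background in all 15 libraries, so no size is given. The limma adjusted p of these 5 was at most 0.000823. Notum was at or below background in all 5 no-Cre libraries and above it in the 3 DKO libraries kept, so its difference is measured against a level near the limit of the array and may be compressed. Ccnd1, a cell cycle gene often listed as a target, differed by -0.58 ± 0.14 (limma, adjusted p = 0.0743). The median difference from no-Cre was 0.57 for the 11 targets, -0.18 for the receptors, -0.13 for the destruction complex, 0.00 for Dishevelled and -0.07 for R-spondins, beside -0.02 for all genes. The 0.57 is the difference of Dkk4 (limma, adjusted p = 0.0796), whose means of 3.55 in DKO and 2.97 in no-Cre were below background. That median is therefore not read as a size. Over 15 libraries 0 genes of these 5 lists passed in any comparison.

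**Figure D4:**
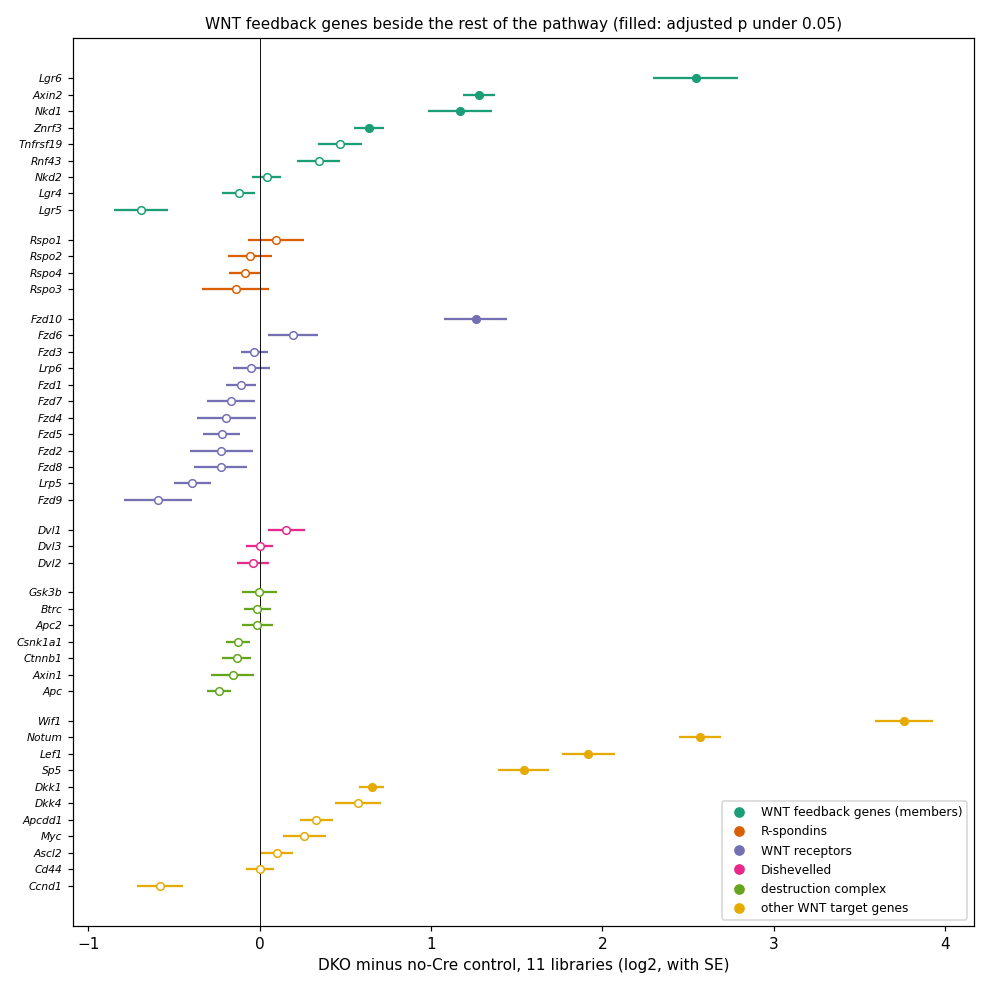
Log2 difference DKO minus no-Cre over 11 libraries (x axis) with its limma standard error for the 9 members and the 5 pathway lists (y axis, 1 gene per line, coloured by list); filled circles have an adjusted p under 0.05. Filled circles are 4 members, Fzd10 and 5 other WNT targets, and all of them lie to the right of 0.

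The genes most like Axin2 over the 15 libraries, by Pearson correlation of log2 level, were Mybpc1 (0.988), Fst (0.986), Lef1 (0.985), Notum (0.983) and Wif1 (0.982). All 5 had low and high libraries apart, as Axin2 does: Mybpc1, a myosin-binding protein gene, read 9.04 to 9.64 in low and 6.03 to 6.87 in high libraries. The genes most like Lgr6 were Cdkn1a (0.970), Gna14 (0.969), Dlx3 (0.968), Bcas1 (0.968) and Wif1 (0.966). Gna14 was at or below background in all 15 libraries and Dlx3 in 12. Cdkn1a, a cyclin-dependent kinase inhibitor, read 10.86 to 11.08 in low and 9.54 to 9.93 in high libraries. These values over 15 libraries rest on 2 separate clusters of libraries and are a description. Within the 10 high libraries the 5 genes most like Axin2 correlated with it at 0.68, 0.36, 0.78, 0.64 and -0.05, in the order given. The 0.64 is that of Notum, which was at or below background in all 10. The 5 genes most like Lgr6 correlated with it there at 0.49, 0.52, 0.64, 0.58 and 0.14. The 0.52 and 0.64 are those of Gna14 and Dlx3, both at or below background in all 10, and Lgr6 itself was so in 4.

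Among the members themselves, the likeness to Axin2 was tested within the 10 high libraries alone, with 8 relations adjusted by Benjamini-Hochberg and permutation p-values. Nkd1 had Pearson's r = 0.753 (permutation p = 0.0141, adjusted p = 0.113) and Spearman's rho = 0.564 (permutation p = 0.0964, adjusted p = 0.386). Without no-Cre 1 and DKO 3, the farthest from the median of Axin2, r was 0.761. Lgr4 had r = 0.647 (permutation p = 0.0452, adjusted p = 0.181), rho = 0.648 (permutation p = 0.0491, adjusted p = 0.386), and r = 0.304 without the same 2 libraries. Znrf3 and Lgr6, which followed Axin2 across the split, had r of 0.282 and -0.086 within the high libraries (permutation p = 0.433 and 0.814). No relation passed the adjusted threshold. For the 6 genes other than Nkd1 and Lgr4 the smallest adjusted permutation p was 0.803 for r and 0.658 for rho.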

How the data were processed

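Total RNA of 15 libraries was measured on 1 whole-transcript array each. Each array row holds a log2 expression value, used as the authors deposited it; values ran from 2.11 to 13.49. Per the submitters' processing notes, RMA and Partek 6.6 were run with build mm9, in an order and with options that are not stated in these sources. The platform annotation names 1 gene for 23521 of 41345 rows, several for 1814 and none for 16010. Only the first kind was kept, and the row of highest mean stood for each of 22180 genes.

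Groups come from the labels. For all genes, limma estimated group means over 15 libraries (12 residual degrees of freedom) and over 11 (8), with eBayes moderation, two-sided p-values, Benjamini-Hochberg adjustment over all genes and a threshold of 0.05. Exact permutation over libraries served for single values, and 100000 permutations for correlations. The limma fit for DKO minus no-Cre was tested on simulated data with planted differences and no split within a labelled group. The exact permutation test and the Benjamini-Hochberg adjustment were tested on values with known answers. The genes named are the 9 members, Gsk3a, Gsk3b and Atoh1; the 5 genes most correlated with Axin2 and with Lgr6; and, of each pathway list, up to 4 genes past the threshold or, where none passed, up to 2 with the largest change. Dkk1, Dkk4, Ccnd1, Mycn, Nhlh1 and Gabra6 were named after their values were seen. The members, lists, rule and the 11 libraries were chosen with earlier results of these data known. Alternatives were a filter that drops the genes in the lowest 30% by mean level, normalizing by quantiles, median centring of each array, robust eBayes with a trend, fitting 2 groups alone, averaging a gene's rows, blocks by replicate number or by the code cg1724 of 3 libraries, array spread as a covariate, and each library left out. Leaving out the 3 libraries coded cg1724 was added after seeing the data. R 4.3.3, limma 3.58.1, Python 3.11.15, scipy 1.17.1 and matplotlib 3.10.9 were used.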

Additional observations from a re-analysis of the deposited data

Results flagged for a closer look

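Lgr4 read 8.77 in the library no-Cre 4, while the other 4 no-Cre libraries read 9.05 to 9.13. The gap to the nearest was 0.774 of the group's range, above Dixon's critical value of 0.710 for 5 libraries. This was the only one of 27 groups tested, 9 members in 3 labelled groups, and chance alone marks about 1 in 20. The same array had the lowest interquartile range of the 15, 3.43, and the DKO differences of Lgr4 came out nearer 0 once array spread entered the fit.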

How the results depend on the processing

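Over 15 libraries the count of members called for DKO minus no-Cre was 0 and became 1 after median centring (Lgr5) and 4 over 11 libraries; for DKO minus Math1-Cre it became 4 over 11 libraries. Leaving out 1 library gave 0 to 1 and 0 to 0. Over 11 libraries the count for DKO minus no-Cre was 3 to 5 without 1 library and 2 with the replicate block, where Nkd1 and Znrf3 had a limma adjusted p of 0.0640 and 0.0554. For DKO minus Math1-Cre it was 2 to 4 without 1 library. It was 2, Axin2 and Lgr6, with the replicate block, with only the 2 groups compared or with array spread as a covariate. Of all genes, 654 passed for DKO minus no-Cre over 15 libraries after median centring, 626 of them lower, in place of 16. Over 11 libraries the replicate block brought that comparison from 239 genes to 42. DKO minus Math1-Cre went from 120 genes to 25 with the block, 39 with only the 2 groups and 68 with array spread. The calls of Axin2 and Lgr6 over 11 libraries were kept under every alternative run. All of these alternatives used libraries picked by the Gsk3a row, on which both genes divide with no overlap, so the kept calls add no separate evidence. Over 15 libraries neither gene passed. Same-numbered libraries correlated at -0.30 to 0.30 in their deviations from the group means, so the numbers were not taken as pairs.

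The Lgr6 minus Lgr4 and Lgr6 minus Lgr5 shifts between DKO and no-Cre did not pass over 11 libraries (2.67 and 3.24), after quantile normalization (1.75 and 2.21) or with the mean of a gene's rows (1.80 and 1.82). With the replicate block they were 1.80 and 2.24 as before, and no call was possible, because the smallest p that 32 sign flips of 5 pairs can give by exact permutation is 0.0625 (adjusted p = 0.188). Without 1 library they ran from 1.53 to 2.13 and from 1.95 to 2.62. Averaging rows left Lgr6 minus Lgr4 itself unchanged, because neither gene has a further row, and moved only its adjusted p. For Lgr5 the average took in a row at background. Lgr6 minus Lgr4 for Math1-Cre minus no-Cre turned to -0.094 over 11 libraries. Lgr5 minus Lgr4 for DKO minus Math1-Cre turned to 0.20 with the mean of rows and ran from -0.14 to 0.11 without 1 library, and for Math1-Cre minus no-Cre from -0.55 to -0.30.

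No signed difference that passed the threshold turned. Of those that did not pass, going from 15 to 11 libraries turned Nkd2 to 0.043 in DKO minus no-Cre, Nkd2 to 0.071 and Rnf43 to 0.20 in DKO minus Math1-Cre, and, in Math1-Cre minus no-Cre, Axin2 to -0.054, Lgr6 to -0.062, Nkd1 to -0.045 and Nkd2 to -0.028. Over 15 libraries Rnf43 for DKO minus Math1-Cre turned to 0.021 with array spread as a covariate, and Znrf3 to -0.0025 without the libraries coded cg1724. Over 11 libraries median centring turned Nkd2 to -0.013 in DKO minus no-Cre. In Math1-Cre minus no-Cre over 11 libraries, quantile normalization turned Lgr4 to -0.018 and Znrf3 to -0.023, the replicate block turned Lgr6 to 0.0067 and Nkd1 to 0.11, array spread turned Lgr4 to -0.016, and leaving out the cg1724 libraries turned Lgr4 to -0.0018, Lgr6 to 0.14 and Nkd2 to 0.0051. Without 1 of 15 libraries Tnfrsf19 ran from -0.018 to 0.26 for DKO minus no-Cre and from -0.11 to 0.063 for Math1-Cre minus no-Cre, where Lgr4 ran from -0.022 to 0.067. Without 1 of 11 libraries, Math1-Cre minus no-Cre ran from -0.29 to 0.089 for Nkd1, -0.24 to 0.0068 for Tnfrsf19, -0.12 to 0.0079 for Axin2, -0.031 to 0.062 for Lgr4, -0.21 to 0.16 for Lgr6 and -0.012 to 0.071 for Znrf3. The causes were not tested. Signal near background limits Rnf43 in 11 libraries and Lgr6 in 4, and, outside the members, Fzd10, Notum, Dkk1, Dkk4, Rspo3, Gabra6, Gna14 and Dlx3.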
